A study of Mus musculus with 6 samples.

Results

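The comparison of mutant IDH1 (R132C, IDH1mut) with wild-type IDH1 (IDH1wt) was described window by window in mouse bone marrow cells profiled by reduced representation bisulfite sequencing. Its members are all 1493 windows of 500 bp that the authors listed as differing between these groups, each counted once by chromosome and start, of 2135 windows listed in any of the study's 3 comparisons. The comparisons of R-2HG with IDH1wt and with IDH1mut list 750 and 603 windows and serve here as context. The listed windows were assigned by the authors to 881 gene symbols through the nearest transcription start site. No value per library was analysed here, so each value below is the authors' difference between a group of 2 libraries and another group of 2, with no spread and no test added.

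All groups came from bone marrow cells of C57BL6 mice immortalised with HoxA9, which keeps myeloid progenitors self-renewing, so every group carries this homeobox factor. The IDH1wt cells (2 libraries) were transduced with the retroviral vector pSF91-IDH1wt-IRES-EGFP and the IDH1mut cells (2 libraries) with pSF91-IDH1mut-IRES-GFP. Both carry the transgene on top of the cells' own Idh1, and both were transplanted into irradiated mice, from which GFP-positive cells were sorted at week 4. The R-2HG group (2 libraries) carried an empty vector, and R-2HG was given at 1 mg per day over the 4 weeks. Whether paired libraries of a group stem from different mice is not in the labels, and the authors' p-values then cover only these libraries, whose spread may be technical. The irradiated hosts keep blood cells of their own, which the GFP sort is meant to leave out. The cell type could not be checked against marker genes, since methylation and no expression was measured.

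Wild-type IDH1 converts isocitrate to 2-oxoglutarate, the cofactor of the TET enzymes that oxidise 5-methylcytosine and of the histone demethylases of the Kdm family. The R132C enzyme reduces 2-oxoglutarate to R-2-hydroxyglutarate, abbreviated R-2HG. This look-alike displaces the cofactor from these enzymes, and human acute myeloid leukaemia with mutant IDH is known for raised DNA methylation. Reduced representation bisulfite sequencing reads the methylation of CpG sites next to cuts of the enzyme MspI, which recognises CCGG, and so samples CpG-rich promoters more densely than other DNA.

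The following promoters belong to genes with a listed window over the start site, and they show how much CpG sequence such windows can hold in genes that gained (Alox5, Lhcgr, Hoxa5, Bmp4) or lost methylation (Bmp8b, Cox7c, Neurod2). They were chosen after the values were seen. Each runs 5′ to 3′ from 250 bases before to 50 after a RefSeq start in build GRCm38.p6, with every CG in capitals. The authors' windows have mm9 coordinates, so gene and promoter were matched by symbol only, and the RefSeq start may differ from the authors' start.
Alox5, chr6:116461129-116461428, minus strand: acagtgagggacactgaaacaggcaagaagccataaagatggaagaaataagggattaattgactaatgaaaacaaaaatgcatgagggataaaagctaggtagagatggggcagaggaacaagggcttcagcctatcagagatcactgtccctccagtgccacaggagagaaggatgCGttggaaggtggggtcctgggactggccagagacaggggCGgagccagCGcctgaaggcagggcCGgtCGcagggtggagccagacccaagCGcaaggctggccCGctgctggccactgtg
Lhcgr, chr17:88791965-88792264, minus strand: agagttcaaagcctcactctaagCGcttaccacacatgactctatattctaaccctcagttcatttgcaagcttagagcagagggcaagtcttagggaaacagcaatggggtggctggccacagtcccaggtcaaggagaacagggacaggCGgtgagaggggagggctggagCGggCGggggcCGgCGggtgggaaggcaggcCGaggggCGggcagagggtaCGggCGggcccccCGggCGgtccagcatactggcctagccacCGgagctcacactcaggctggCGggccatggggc
Hoxa5, chr6:52204538-52204837, minus strand: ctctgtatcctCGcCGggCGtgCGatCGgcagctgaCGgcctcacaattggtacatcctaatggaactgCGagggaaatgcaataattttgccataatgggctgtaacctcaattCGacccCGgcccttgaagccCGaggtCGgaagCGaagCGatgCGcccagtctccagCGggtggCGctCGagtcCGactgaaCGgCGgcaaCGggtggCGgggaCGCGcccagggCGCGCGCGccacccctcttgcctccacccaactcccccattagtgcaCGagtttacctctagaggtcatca
Bmp4, chr14:46390620-46390919, minus strand: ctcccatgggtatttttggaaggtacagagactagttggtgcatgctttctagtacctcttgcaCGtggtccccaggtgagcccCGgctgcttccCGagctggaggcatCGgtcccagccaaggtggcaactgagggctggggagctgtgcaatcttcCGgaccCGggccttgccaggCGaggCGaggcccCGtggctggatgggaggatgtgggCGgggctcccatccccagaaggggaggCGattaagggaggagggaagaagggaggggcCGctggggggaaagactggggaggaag
Bmp8b, chr4:123104911-123105210, plus strand: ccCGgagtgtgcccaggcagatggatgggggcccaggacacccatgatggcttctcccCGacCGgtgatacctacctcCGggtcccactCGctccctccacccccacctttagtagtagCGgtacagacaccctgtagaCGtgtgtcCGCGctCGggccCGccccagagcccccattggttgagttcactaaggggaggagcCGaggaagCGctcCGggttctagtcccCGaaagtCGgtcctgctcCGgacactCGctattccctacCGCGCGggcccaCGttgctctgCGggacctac
Cox7c, chr13:86046746-86047045, minus strand: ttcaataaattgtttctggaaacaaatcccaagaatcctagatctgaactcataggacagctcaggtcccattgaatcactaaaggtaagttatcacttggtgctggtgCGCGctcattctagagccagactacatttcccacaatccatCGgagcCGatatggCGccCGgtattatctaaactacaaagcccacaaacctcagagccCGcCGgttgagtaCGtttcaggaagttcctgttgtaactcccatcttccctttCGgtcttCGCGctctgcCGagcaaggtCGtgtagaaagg
Neurod2, chr11:98329596-98329895, minus strand: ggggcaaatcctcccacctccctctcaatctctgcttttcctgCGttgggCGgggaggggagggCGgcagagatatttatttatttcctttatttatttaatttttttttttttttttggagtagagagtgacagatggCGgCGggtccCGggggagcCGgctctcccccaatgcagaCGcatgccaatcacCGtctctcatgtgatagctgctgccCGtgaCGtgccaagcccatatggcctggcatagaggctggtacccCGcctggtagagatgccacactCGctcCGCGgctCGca
The Hoxa5 promoter holds 29 CG and 2 CCGG, and the Bmp8b promoter 23 CG and 5 CCGG. The Alox5 promoter holds the fewest of these 7, with 7 CG and 1 CCGG. The Lhcgr, Bmp4, Cox7c and Neurod2 promoters hold 14, 12, 14 and 16 CG, with 3, 3, 2 and 2 CCGG. Both motifs read the same on either strand, and every CCGG contains a CG. CCGG was found in 52.8% of all 32851 RefSeq promoter entries of this length. Only 38 of the 83 genes with a gain and 17 of the 31 genes with a loss within 250 bp of the start had a single promoter entry, so a check of promoter CpG content over the sets is void and no set value is given.

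Windows near microRNA genes are shown by the mature microRNAs, in RefSeq's sequences, with the seed (bases 2 to 8, which pair with target messenger RNAs) in capitals.
miR-671-5p: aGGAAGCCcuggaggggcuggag
miR-671-3p: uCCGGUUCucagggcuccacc
miR-152-3p: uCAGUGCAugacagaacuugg
miR-128-3p: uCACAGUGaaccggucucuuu
miR-196a-5p: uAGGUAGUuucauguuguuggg
miR-5103: uCAUCCGGgauccccugagg
None of these 6 share a seed. Mir671, Mir152, Mir128-2 and Mir196a-1 lie at gains and Mir5103 at a loss, with values given below. The miR-152 family is known for targeting the DNA methyltransferase Dnmt1, and miR-196a genes lie inside the Hox clusters.

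The deposited table does not say which group was subtracted. Differences were read as IDH1mut minus IDH1wt, in percentage points of methylation, so a gain is higher methylation with IDH1mut. The values of the 3 tables fix the order of subtraction only up to a reversal of all of them, under which every gain becomes a loss. In the order used, the deposited differences between R-2HG and IDH1wt had to be reversed, and the other comparisons kept their sign. Had the R-2HG and IDH1wt differences been read as deposited, as R-2HG minus IDH1wt, the gains described here would be losses. Of the 1493 windows, 1035 were gains and 458 were losses, which is 69.3% gains. The gains had a median of 30.6 points (quartiles 27.1 and 36.5) and the losses a median of -28.9 points (quartiles -33.8 and -26.6). The table holds no difference below 25 points in size and no q above 0.00900, so windows with smaller differences are not in it. Many lay close to it, since 201 windows (13.5%) differed by less than 26 points.

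Gains made up more of the larger differences. They were 64.7% of the 747 windows between 25 and 30 points, 71.8% of the 535 between 30 and 40, 76.7% of the 150 between 40 and 50, and 53 of the 61 windows (86.9%) of 50 points or more. The p-value deposited as 0 moved with size too, from 61.0% of the windows under 30 points to 91.8% of those of 50 or more, and it was more frequent among gains (74.5%) than losses (62.9%). Read depth behind the windows is unknown, and its part in these shares was not tested. The largest gain of the authors' deposited table, 69.6 points, lay 206 bp downstream of the start of Mab21l2, a gene of eye and body wall development. Ubb, which encodes polyubiquitin, followed with 67.4 and 65.5 points in windows over its start. The largest loss, -58.1 points, lay at Hoxc6. The next losses in the authors' deposited table were -56.0 points 27128 bp upstream of the uncharacterised 4930401O10Rik, and -55.6 points 227 bp upstream of Hccs, which attaches haem to cytochrome c. The Hccs window stands on a weaker q (8.84e-05, the authors' value) than most differences of its size.

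**Figure D1:**
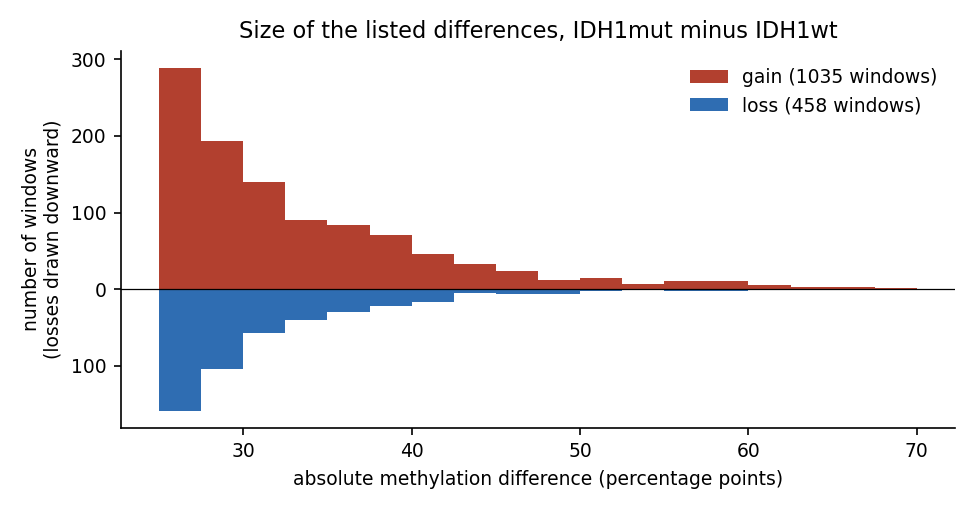
Number of listed windows (vertical axis, gains drawn upward and losses downward) by the absolute size of the authors' methylation difference, IDH1mut against IDH1wt, in percentage points (horizontal axis). Both directions pile up just above the threshold of 25 points, and 53 of the 61 windows of 50 points or more are gains.

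Windows start 250 bp apart and overlap, so neighbours share CpGs and are not separate measurements. Among 551 overlapping pairs, 183 had an identical difference (within 1e-09 points), the median step was 0.510 points, and 0 pairs differed in sign. Joining windows within 1000 bp left 929 stretches, of which 624 (67.2%) were gains, 305 were losses and 0 held both directions. Of these, 448 were a single window, 424 held 2 windows, 41 held 3, 13 held 4, and the remaining 3 held 7, 7 and 8. Stretches of 3 or more windows numbered 57, and 47 of them (82.5%) were gains.

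The 3 longest stretches lay at Hoxc6 with Hoxc5, Lrrc4 and Mir671. At Hoxc6 and Hoxc5 (mm9, chr15:102839751-102843000) the authors' deposited table lists 8 windows, all losses. They ran from -46.5 points over the Hoxc6 start to -52.8 points 760 bp and -58.1 points 1510 bp downstream. The stretch ended at -32.5 and -30.4 points 1689 and 1439 bp upstream of Hoxc5. Lrrc4, a postsynaptic adhesion protein that binds netrin-G, had 7 windows of gain (mm9, chr6:28781751-28784000). There the authors' deposited table steps from 27.3 points 5 bp upstream of the start to 29.97 points at 1005 bp and 58.4 points at 1505 bp. Mir671 had 7 windows of gain (mm9, chr5:24096501-24098500), with 29.3 points 932 bp upstream, 52.1 points 182 bp upstream and 52.9 points 71 bp downstream in the authors' deposited table. The differences were largest away from the start at Lrrc4 and Hoxc6 and close to it at Mir671, whose mature sequences are given above.

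**Figure D2:**
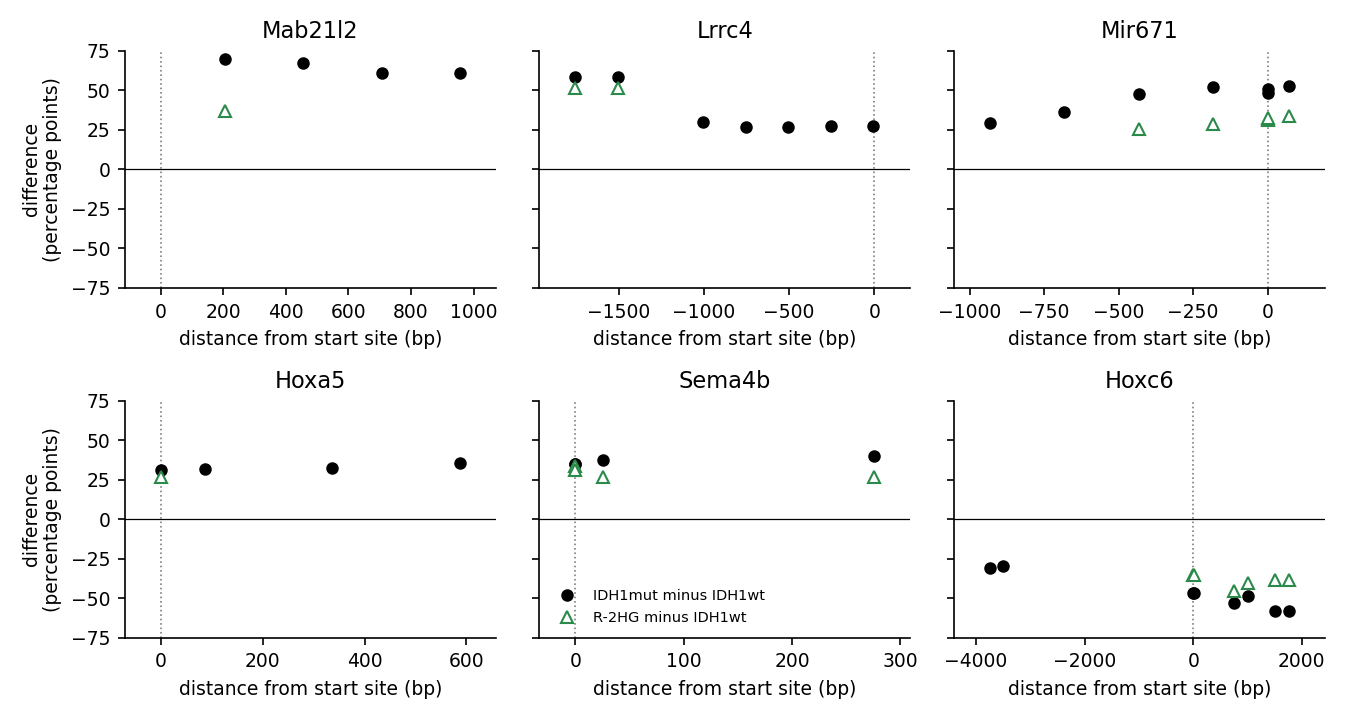
Authors' methylation difference in percentage points (vertical axis) against distance from the start site in bp (horizontal axis) for listed windows of 6 genes. Filled circles are IDH1mut minus IDH1wt, and open triangles are R-2HG minus IDH1wt (deposited sign reversed) where that window is listed. Hoxc6 lies between -29.9 and -58.1 points in the IDH1mut comparison, while the other genes lie above 26 points.

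Start sites were hit in both directions. A listed window lay within 250 bp of the start of 114 genes, in 83 as a gain and in 31 as a loss. Lhcgr, the receptor of luteinising hormone, gained 58.8, 58.7 and 58.6 points in 3 windows at its start (mm9, chr17:89190751-89191750; the authors' deposited table). Alox5, the 5-lipoxygenase that makes leukotrienes in myeloid cells, gained 51.0 points in both windows over its start (mm9, chr6:116410751-116411500; same deposited table). The promoter of Alox5 printed above carries 7 CG, the median of all promoter entries, and that of Lhcgr 14. Mansc1, a membrane protein gene, gained 46.2, 50.9 and 51.4 points, and the sulfotransferase gene Sult2b1 had gains of 42.5, 43.8 and 44.6 (the authors' deposited table). Gains over the start of Smpdl3a, a phosphodiesterase gene, reached 44.2 points, and those over Spag17, a cilium gene, 39.9 points (the authors' deposited table). Among genes of immune and blood vessel cells, Il1r1, the interleukin-1 receptor, gained 31.1 points 72 bp from its start and Esam, an adhesion molecule also found on blood stem cells, 33.0 and 26.2 points (the authors' deposited table).

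Losses at starts were fewer and included genes of several kinds. The 4930511A02Rik transcript had -48.5, -48.6 and -49.2 points at its start in the authors' deposited table. Cox7c, a subunit of cytochrome c oxidase, had -40.1, -38.3 and -26.8 points in the authors' deposited table (mm9, chr13:86185751-86186750). Dcp1b, an mRNA decapping factor, had -41.0 points 21 bp upstream of its start, and Dapk2, a death-associated kinase of granulocyte development, -35.7 points 33 bp upstream with a q of 0.00247 (the authors' deposited table). Neurod2, a neuronal bHLH factor, had -30.1 points over its start (mm9, chr11:98190501-98191000; deposited table of the authors).

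Position relative to the nearest start site was compared in 5 classes. The median distance was 18410 bp. Promoter windows, from -2000 to 500 bp, numbered 270 (18.1%), of which 201 (74.4%) were gains. Windows between 0.5 and 50 kb downstream numbered 475 with 64.6% gains, and those between 2 and 50 kb upstream 284 with 65.5% gains. Beyond 50 kb, 199 windows lay upstream with 79.9% gains and 265 downstream with 68.7% gains. Counted as stretches, the order from upstream to downstream was 79.2%, 63.1%, 72.3%, 60.9% and 69.5% gains. Around the start itself the share changed little, with 72.9% gains over the start, 75.6% from 1 to 500 bp and 80.2% of 86 windows beyond 500 and up to 2000 bp, before 61.2% of 139 windows beyond 2000 and up to 10000 bp. The median size stayed between 29.6 and 31.0 points in all 5 classes. Since the windows that were measured and not listed are not known, these shares compare gains with losses and do not say how often a class was hit. Noncoding transcripts were nearest in 250 windows (16.7%), with 70.4% gains against 69.1% for coding transcripts.

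**Figure D3:**
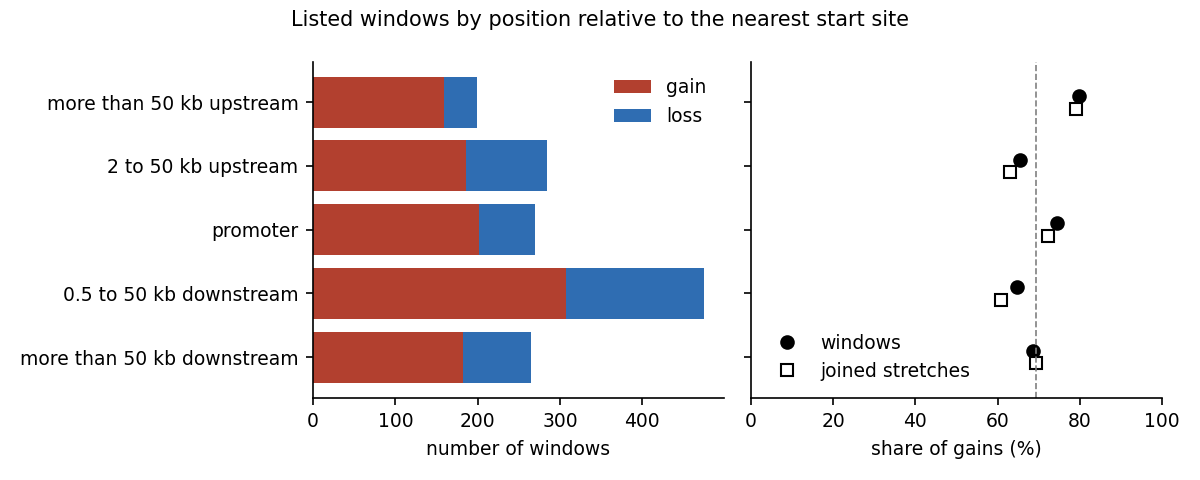
Left, number of listed windows (horizontal axis) that were gains or losses in each position class; right, share of gains in percent (horizontal axis) over windows (filled circles) and joined stretches (open squares), with a dashed line at 69.3% for all windows. Gains outnumber losses in every class, with the highest share, 79.9% of windows, more than 50 kb upstream.

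Every chromosome in the table held more gains than losses. The share of gains was highest on chromosome 16 (40 of 47 windows, 85.1%) and chromosome 14 (57 of 67, 85.1%), followed by chromosome 10 (79.3%) and the X chromosome (38 of 49, 77.6%). It was lowest on chromosome 19 (19 of 33, 57.6%), chromosome 8 (47 of 80, 58.8%) and chromosome 15 (59.4%). The chromosome 19 value leans on Neurl1a, a ubiquitin ligase of the Notch pathway with 5 losses between -25.6 and -36.9 points in the authors' deposited table. Without genes of 4 or more windows that chromosome had 67.9% gains, and chromosome 15, which holds the Hoxc stretch, had 65.4%. Counted that way chromosome 8 was lowest with 59.2%, and chromosome 14 (84.1%) stood above chromosome 16 (80.6%). Bach1, on chromosome 16, a repressor of haem oxygenase, had 2 windows, with gains of 56.5 and 59.5 points about 98304 bp downstream of its start (the authors' deposited table). The Y chromosome is not analysed here.

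**Figure D4:**
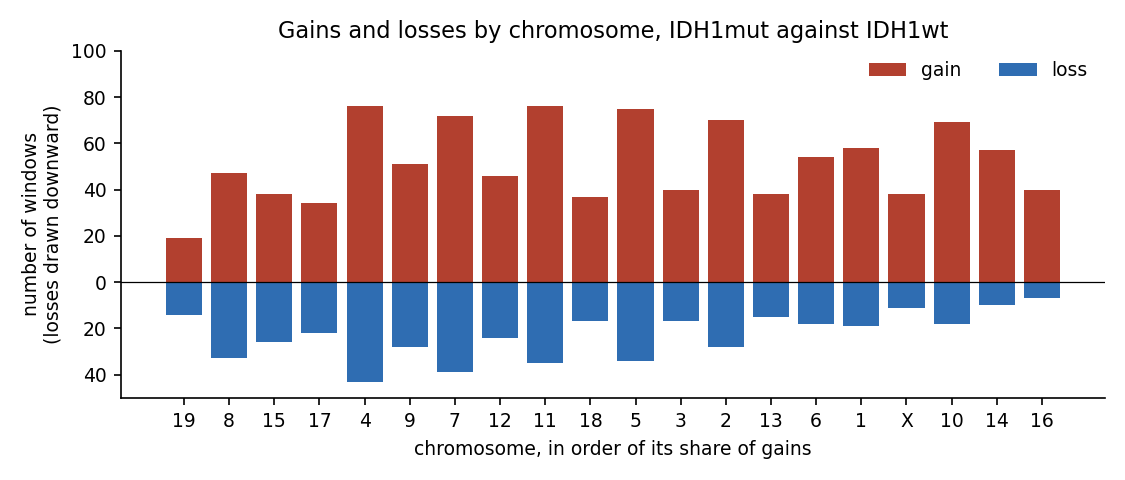
Number of listed windows (vertical axis, gains drawn upward and losses downward) on each chromosome, ordered from left to right by rising share of gains. Chromosome 19 stands first with 57.6% gains and chromosome 16 last with 85.1%.

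Genes were then grouped into 38 lists by family or function, and each list was read against all genes: 872 of 26220 RefSeq genes, or 3.33%, are the nearest gene of a listed window. Which genes the assay covered is not known, and long or isolated genes collect distant windows, so a share above 3.33% is a description and not an enrichment. The lists were also written with earlier results of these data known, so neither a share nor a direction tests a list. The lists hold 363 listed genes, and 69.8% of their windows were gains. Of 39 genes of the Hox clusters, the homeobox genes that set position along the body axis and act in blood progenitors, 8 (20.5%) were listed, 6 with gains only and 2 with losses only.

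The Hox genes divided by cluster. Hoxa5 gained 35.5, 32.3, 31.5 and 30.8 points in 4 windows from 587 bp downstream to its start (mm9, chr6:52153501-52154750; the authors' deposited table). Hoxa2 gained up to 39.4 points upstream of its start and Hoxa4 31.4 points 453 bp downstream, according to the authors' deposited table. In the Hoxb cluster, the authors' deposited table gives Hoxb3 gains of 31.5, 36.1 and 36.5 points, and Hoxb4, an expander of blood stem cells, gains of 31.5 and 28.8 points. Mir196a-1, on the same chromosome as the Hoxb genes, gained 25.2 points 1228 bp upstream (the authors' deposited table). Hoxc5 and Hoxc6 carried losses only, as described above, and Hoxc6 had further losses of -30.7 and -29.9 points 3743 and 3493 bp upstream in the authors' deposited table. Hoxa11os, an antisense transcript outside the list and named after its values were seen, had -27.6 and -27.1 points there, so losses also occurred within the Hoxa region. Hoxa9, whose retroviral copy all groups carry, had no listed window.

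Homeobox genes outside the clusters were listed in 14 of 197 cases (7.1%), with 22 windows of gain and 4 of loss, and none of these windows lay in a promoter. Meis1, the cofactor of HoxA9 in leukaemia, appeared in both directions: the authors' deposited table gives 40.7, 44.6 and 40.3 points about 143473 bp downstream and -42.4 points 10973 bp downstream. Of 9 GATA and Zfpm genes 4 (44.4%) were listed. Gata3, the T cell and stem cell regulator, gained 48.8, 47.0 and 33.3 points 1728, 1478 and 1228 bp downstream of its start, and Gata2, needed by blood stem cells, 41.6 points 46158 bp upstream (the authors' deposited table). Gata4, a heart and endoderm factor, had -36.8 points 27155 bp upstream in the authors' deposited table. Both listed T-box genes were losses, Tbx1 at -25.2 and -25.7 points and Tbx3 at -26.6 points (the authors' deposited table). bHLH genes had 6 windows of gain and 7 of loss over 9 listed of 84 genes, and within 50 kb of a start the order turned to 6 gains and 5 losses.

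Among 233 genes of chromatin and DNA methylation 11 (4.7%) were listed, near the 3.33% of all genes, 9 with gains only and 2 with losses only. Cbx8, a Polycomb protein, gained 55.6 and 55.8 points 3478 and 3228 bp downstream of its start, and Bmi1, a self-renewal factor of blood stem cells, 53.7, 45.6 and 41.8 points from 3608 to 4108 bp downstream (the authors' deposited table). Rnf2, which works in the same complex, gained 25.2 points 17799 bp upstream in the authors' deposited table, close to the threshold. Asxl3 and Brd7 gained up to 41.5 and 42.5 points, both away from their starts (the authors' deposited table). Dnmt3a, a de novo DNA methyltransferase, gained 25.8 points over a start site (the authors' deposited table). Smarcb1, a SWI/SNF subunit, had -26.2 points upstream of its start in the authors' deposited table. Idh1, Idh2 and Tet2 had no listed window. Of 61 genes of IDH and 2-oxoglutarate metabolism only P4ha3, a collagen prolyl hydroxylase that uses 2-oxoglutarate, was listed, with -25.1 and -28.7 points near 2973 bp (the authors' deposited table).

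For the TGF-beta and BMP pathway 14 of 91 genes (15.4%) were listed, with 19 windows of gain and 9 of loss, and 2 of these (Bmp2k and Tgfb1i1) bear the name without being ligands. The ligand Bmp4 gained 30.2 and 30.1 points over its start (mm9, chr14:47010001-47010750), while the ligand Bmp8b had -26.1 points over its start and -30.6 points 95 bp downstream (mm9, chr4:122782251-122783000; the authors' deposited table). The antagonist Nog gained 30.9 points upstream and the hormone gene Amh up to 37.6 points (the authors' deposited table). Of the signal transducers, the authors' deposited table gives Smad5 gains of 38.4 and 30.9 points, Smad9 -27.3 points and Smad1 -26.1 points. Ski, a corepressor of Smad proteins, had -42.0 and -33.8 points about 7145 bp downstream (the authors' deposited table).

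Of 92 genes in a list of axon guidance genes and some synaptic adhesion genes 15 (16.3%) were listed, 9 with gains only and 6 with losses only. The synaptic adhesion gene Lrfn1, described further below, is not in this list. The semaphorin Sema4b gained 34.9, 35.1, 37.2 and 39.7 points from its start to 276 bp downstream (mm9, chr7:87331251-87332500), and Sema4f 30.8, 31.2 and 31.3 points at its start (the authors' deposited table). The ligand Efnb1 had -42.3 points 1034 bp downstream of its start, and the receptors Ephb1, Epha5 and Epha6 had -26.4, -25.9 and -25.8 points far from theirs (the authors' deposited table). The receptors Epha8 and Ephb2 had gains of 31.7 and 25.4 points there. Of 91 Wnt pathway genes 8 (8.8%) were listed, with 12 windows of gain and 3 of loss. The ligand Wnt7a gained 40.7 points 10364 bp downstream, and the amplifier of Wnt signals Rspo1 28.4 points near its start (the authors' deposited table). Ctnnb1, the transducer beta-catenin, had -29.3 and -26.1 points about 142557 bp from its start, a distance at which the assignment to it is loose (the authors' deposited table).

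Cadherins and protocadherins were listed in 8 of 108 cases (7.4%), 6 with gains only and 2 with losses only. The clustered protocadherins, which give neurons individual surface codes, held Pcdhga8 with 49.1 points, Pcdhga9 with 41.9 and 30.8 points, Pcdhgb7 with 30.8, Pcdhgb4 with 26.7 and Pcdhb3 with 30.9 points of gain, and Pcdhac2 with -27.8 points (the authors' deposited table). These genes resemble one another in sequence, and how the authors' alignment divided reads between them is not known. Of 1191 microRNA genes 14 (1.2%) were listed, below 3.33%, 12 with gains only and 2 with losses only. Counted by window these were 26 gains and 2 losses (92.9% gains), against 69.3% gains over all windows. These windows are not separate measurements, since 7 of the gains lie in the Mir671 stretch. Besides Mir671, the authors' deposited table gives Mir152 32.4 points 46 bp downstream and Mir128-2 25.8 points 37 bp upstream. Mir5103 had -37.9 points over its position in the authors' deposited table. Mir684-1 was nearest to windows on 3 chromosomes, since the name stands for several copies, and its 26.4 to 31.3 points cannot be given to 1 place (the authors' deposited table). Receptor genes of smell, pheromones and taste were listed in 8 of 1520 cases (0.5%), and solute carriers in 4 of 396 (1.0%).

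Few genes that define blood lineages were listed, in shares near the 3.33% of all genes or below it. Of 36 genes of myeloid differentiation 0 were listed, of 22 erythroid and megakaryocyte markers 1 (Zfpm1, 4.5%), of 34 lymphoid markers 2 (Gata3 and Zap70, 5.9%) and of 23 stromal and endothelial markers 1 (Col1a1, 4.3%). Zfpm1, the GATA1 cofactor, gained 31.7 points 43541 bp upstream, Zap70, a T cell receptor kinase, 33.5 points 18797 bp downstream, and Col1a1, a collagen chain, 25.2 points (the authors' deposited table). The blood stem and progenitor list stood above that share with 7 of 34 genes (20.6%), 4 with gains only, 2 with losses only and Meis1 with both. This list was written with earlier results of these data known, so its share is no evidence of an excess. Its losses were Cdkn1c and Hlf, a transcription factor of stem cells, at -28.9 and -27.3 points about 42482 bp downstream (the authors' deposited table). A change in the mix of sorted cells was not tested.

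Of 38 tumour suppressors that are often hypermethylated in cancer 7 (18.4%) were listed, against 3.33% of all genes. By gene 2 had gains only and 5 losses only, while 66.1% of all listed genes had gains only. By window they were nearly even, with 5 gains and 6 losses. This list too was written with earlier results of these data known, so its share and direction are descriptions only. Hic1, a transcriptional repressor, had 4 windows of gain between 29.7 and 35.5 points, 1155 to 1905 bp downstream, and Socs3, an inhibitor of cytokine signals, 31.9 points 19181 bp downstream (the authors' deposited table). Cdkn1c, a cell cycle inhibitor and imprinted gene, had -36.5 points over its start and -37.0 points 47 bp upstream in the authors' deposited table. Dlc1 had -34.3 points and Esr1, the oestrogen receptor, -28.9 points, both more than 40 kb from their starts, and Gata4 and Dapk2 were given above (the authors' deposited table). Among 41 imprinted genes, whose methylation depends on the parent of origin, 3 (7.3%) were listed. The growth factor Igf2 had -33.7 points 137 bp from its start and -32.9 points over it, and Nnat gained 29.5 points 157 bp from its start (the authors' deposited table).

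**Figure D5:**
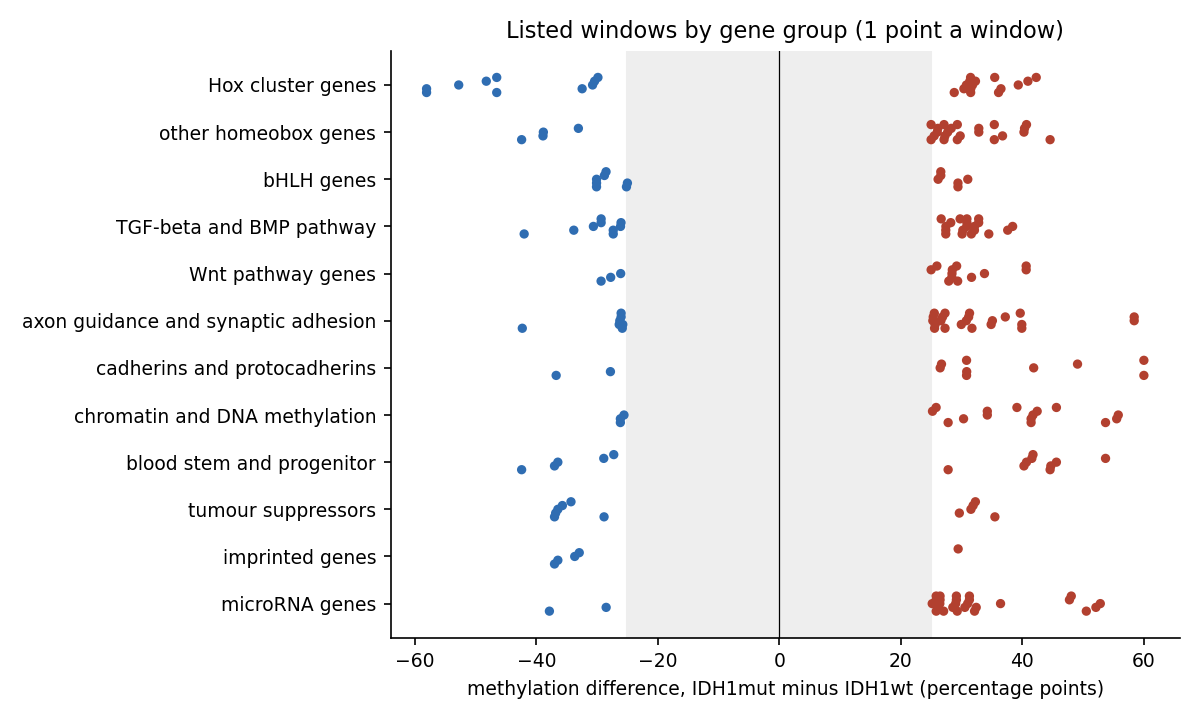
Authors' methylation difference, IDH1mut minus IDH1wt in percentage points (horizontal axis), for the listed windows of 12 gene lists (rows), 1 point a window, with the range below the threshold of 25 points shaded. The 8 listed Hox cluster genes hold 15 gains and 10 losses that reach -58.1 points, while the 14 listed microRNA genes hold 26 gains and 2 losses. Neighbouring windows overlap, so points of a gene are not separate measurements.

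By direction, 582 genes (66.1%) had gains only, 276 losses only and 23 both. Genes with both directions had them in separate stretches, as joined within 1000 bp, though not always far apart. Trabd2b gained 29.6 points 70424 bp downstream of its start and had -46.8 points 71674 bp downstream (the authors' deposited table). Dsel, a glucuronyl epimerase gene, had 5 gains up to 47.5 points about 704257 bp upstream and losses of -38.7 and -48.6 points about 109996 bp downstream (the authors' deposited table). Grik3, a kainate receptor, gained 26.7 and 26.8 points 2075 and 1825 bp upstream of its start and had -27.7, -25.9 and -26.4 points downstream, from 24678 bp on (the authors' deposited table). Gbx1 and Gbx2, related homeobox genes, each gained at one place (29.8 and 26.01 points) and lost at another (-38.9 and -33.1 points) in the authors' deposited table. Mab21l2 and its relative Mab21l1 differed in direction. Mab21l2 gained 69.6, 66.9, 61.2 and 60.8 points over 4 windows, while Mab21l1 had -32.4, -34.2, -31.5 and -31.1 points around its start (the authors' deposited table).

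The values with R-2HG are set beside these for the genes that stood out, and the comparisons share libraries, so they are not independent. Where a window is not listed for R-2HG, its difference is not known. The authors' differences between R-2HG and IDH1wt were deposited with the opposite sign and are given here reversed. This sign order was chosen because it left 0 windows listed in exactly 2 comparisons with a remaining difference of 25 points or more. Such windows, if listed for IDH1mut and for R-2HG against IDH1wt, therefore share a direction by construction. The shared direction there is not a separate result. At Lhcgr the authors' deposited tables, so read, give 58.0, 58.8 and 58.9 points for R-2HG minus IDH1wt. The values for IDH1mut minus IDH1wt there were 58.8, 58.7 and 58.6 points. At Alox5 the same tables of the authors give 37.2 points next to 51.0, and at Cbx8 36.5 and 36.6 next to 55.6 and 55.8. At Sema4b the R-2HG differences were 33.4, 31.0, 26.5 and 26.9 points, and at Cox7c -36.5 and -33.9 points (the authors' deposited tables). The Hoxc6 losses were listed with R-2HG too, from -35.5 to -45.3 points at 6 windows (the authors' deposited tables).

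Other windows of the IDH1mut comparison were listed where R-2HG differed from IDH1mut. If listed in exactly 2 comparisons, these have opposite signs in them by the same choice of sign order, so that opposition is not a separate result either. At Bmi1 R-2HG minus IDH1mut was -44.8, -35.7 and -31.4 points, at Bach1 -52.8 and -54.6 points and at Mansc1 -40.0, -46.2 and -46.8 points (the authors' deposited tables). At Gata3 it was -34.0, -40.3 and -29.6 points, against gains of 48.8, 47.0 and 33.3 points with IDH1mut (the authors' deposited tables). Dusp8, a phosphatase of MAP kinases, had -44.1, -48.7 and -50.7 points with IDH1mut, where R-2HG minus IDH1mut was 25.3, 28.8 and 30.3 points (the authors' deposited tables). At Mab21l2 the window with 69.6 points had 36.7 points for R-2HG minus IDH1wt and -32.8 points for R-2HG minus IDH1mut, so the R-2HG level lay between the others (the authors' deposited tables). The groups differ in vector as well as in exposure, and these cannot be told apart.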

How the data were processed

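Reduced representation bisulfite sequencing was done on 6 libraries, 2 each of IDH1wt, IDH1mut and R-2HG. The submitters' processing notes name Trim Galore, BSMAP, methylKit 0.9.1 and build mm9. For the settings, coverage filter and test the answer is: not given in the sources used here. Per the file headers, each row of the authors' table holds a window with its p-value and q-value, a signed methylation difference (a score in percentage points computed by the authors between groups), and the nearest start site with its distance, transcript and symbol. The authors deposited 0 as the p-value of 70.9% of the windows. Read depth is unknown, so no interval is given. No value per library was used, and no test was made here.

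From 1557 rows, 64 repeats of a window were removed. The row numbers lack 5 entries, which are not analysed here. Of 885 transcripts 875 matched RefSeq by accession. Windows within 1000 bp were joined into stretches, and a distance of 0 means that a window overlaps the start. The sign order of the tables was chosen from 4 orders by the 705 windows listed in exactly 2 tables. It left 0 of them with a remaining difference of 25 points or more, against 457, 633 and 320 for the others. In the chosen order the differences also add up at the 3 windows listed in all tables (residual 0 points). The joining was tested on simulated data, and the choice of sign was not. Python 3.11.15, pandas 2.3.3, numpy 2.4.6 and matplotlib 3.10.9 were used.

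The members, the 38 lists and the named genes were chosen with earlier results of these data known. Named genes were those with 4 or more windows and those of the 10 largest gains and losses. Those of the 15 largest gains and 10 largest losses within 250 bp of a start were added. So were up to 6 a list by number of windows and then size, and up to 10 with both directions. The 5 with most windows on the chromosomes of highest and lowest share of gains followed. Idh1, Idh2, Hoxa9, Meis1, Tet2 and Dnmt3a were named in advance. The Kdm genes were planned as well but were left out. Further members of a list were named after their values were seen, and a few listed genes are not reported here. Alternatives were a stricter size or q, every row counted, non-overlapping windows, other joining distances and other promoter limits.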

Additional observations from a re-analysis of the deposited data

How the results depend on the processing

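Under the opposite sign, 30.7% of the windows would be gains in place of 69.3%. At differences of 30 points or more, 746 windows in 457 stretches remained, with 74.0% gains over windows and 70.9% over stretches, and 21.3% of the windows lay in promoters in place of 18.1%. The lists then held 191 listed genes with 73.4% gains, and 70 genes with 75.6% gains when only promoter windows were counted, against 363 genes and 69.8%. These settings hold fewer windows by construction. A q of 0.001 or less, every row counted, non-overlapping windows and joining within 250 or 5000 bp gave 68.1% to 70.5% gains over windows and 67.1% to 67.96% over stretches, as far as each applies. They recount the same windows, so this does not measure the error. Joining within 5000 bp gave 1 stretch of both directions. Of the 195 listed genes named by rule, 148 kept a window at 30 points or more, 192 at the stricter q and 149 within 50 kb of the start.

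No paired analysis was possible because the table holds no values per library, and no library was left out for the same reason. Read depth, coverage and the spread between libraries are unknown. Windows that were measured and not listed are not known, so a gene with no listed window cannot be told from one with no data. A symbol names the nearest start, however far, and exons or introns were not assigned.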

Other observations

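Further genes stood out by size. Lrfn1, a synaptic adhesion protein gene, gained 38.2, 54.8 and 60.1 points from 14746 to 15246 bp downstream of its start, and Chrnb1, a subunit of the muscle acetylcholine receptor, 59.6 points in both its windows about 10440 bp downstream (the authors' deposited table). Cdh8, a cadherin of neurons, gained 60.04 points, but 1191608 bp from its start (the authors' deposited table). Col5a3, a fibrillar collagen chain, gained 45.5 and 46.2 points, and Mmp23, a metalloproteinase, 35.8 and 47.4 points in pairs of windows upstream of its start (the authors' deposited table). Vmn1r14, a pheromone receptor gene, gained 58.6 and 58.7 points about 3183 bp upstream in the authors' deposited table.

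Among regulators, Nfatc4, a calcineurin-dependent factor, gained 44.9, 54.2 and 30.5 points about 9132 to 9632 bp upstream, and Khdc3, an oocyte gene, 40.6, 38.4 and 38.9 points downstream of its start (the authors' deposited table). Etv6, a factor of blood stem cells and a frequent leukaemia fusion partner, gained 44.7 points 52778 bp downstream (the authors' deposited table). Klf17 and Zfp385b had -48.6 and -51.6 points, the latter 629 bp upstream of its start, in the authors' deposited table. Zfp503 gained 32.3 to 35.0 points in 4 windows (the authors' deposited table).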
